A study of Mus musculus with 24 samples.

Results

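Carbonic anhydrases are zinc enzymes that convert carbon dioxide and water into bicarbonate and a proton, and the reverse. In muscle they serve the removal of carbon dioxide, the buffering of protons made by glycolysis and the supply of bicarbonate to carboxylating enzymes. The family has cytosolic, mitochondrial and membrane-bound forms, and *Car9*, whose enzyme faces the outside of the cell, is a textbook target of the hypoxia-inducible factor HIF.

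The genes described here are *Car2*, *Car3*, *Car4*, *Car5b*, *Car8*, *Car9*, *Car12* and *Car14*, taken as every non-control probe that the array's design lists under 1 of these symbols. These were 8 of 34797 listed gene names, read by 10 of 55681 probes, each with 1 spot per array. RNA was from *M. gastrocnemius* of 24 male C57BL/6JOlaHsd mice that arrived at 10 weeks of age, had 3 weeks on a low-fat diet (10% of energy from fat) and then 6 weeks on a high-fat diet (40% of energy). The fasted mice then stayed for 6 h at 20.9% oxygen (Norm, n = 12) or at 12% oxygen (Hypox, n = 12). All mice were thus male, high-fat fed and fasted, and only 1 time point was sampled. On each 2-colour array, Cy5 marked a single mouse and Cy3 a pool made from all samples, and values are log2 ratios of Cy5 to Cy3 after loess, a normalization within each array that depends on brightness.

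The arrays lay on 6 slides with 2 Norm and 2 Hypox arrays each, numbered here from the dimmest (slide 1, mean Cy5 signal per array 58.3 to 102) to the brightest (slide 6, 645 to 1014). The mean Cy3 signal of the pool varied less, between 849 and 1448. By the scanner software's call, 32.4% and 27.0% of spots were well above background in Cy3 on Hypox 6 and Hypox 10. On the other arrays this share was 35.9% to 40.9%. Dim probes read higher in Cy3 on these 2 arrays, such as that of *Car12* at 122 and 321, against 57.4 to 74.6 elsewhere. All 8 skeletal muscle markers examined, such as *Acta1* and *Ckm*, passed the filter on dim probes, which asked for a Cy5 signal over 2 times the local background on average. The lung marker *Sftpc* stood at 2.57 on the Hypox 8 array, against a Norm range of -2.04 to -0.16. Precision is limited by the number of arrays.

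Signal above background was found on most arrays for 4 of the 8 genes. *Car3* (cytosolic, the abundant muscle form) and the brighter probe of *Car4* (anchored to the outer face of capillary and muscle membranes) were well above background in Cy5, by the scanner software's call, on 24 of 24 arrays. *Car14* (a membrane enzyme with its active site outside the cell) was so on 22 arrays and *Car2* (the fast cytosolic form of red cells and many tissues) on 18. Of the 4 slide 1 arrays, 2 read *Car14* and 0 read *Car2* above background. These 4 genes passed the filter with 1 probe each.

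The other 6 probes did not pass it. *Car9* was well above background on 5 of 24 arrays, 4 of them on slide 6. *Car8*, which lacks the catalytic activity of the family and binds the IP3 receptor, was so on 3 arrays with 1 probe and on 0 with the other. *Car5b* (mitochondrial) was well above background on 1 array and *Car12* (membrane-bound) on 0. The second *Car4* probe was so on 3 arrays. In the brighter Cy3 pool channel, by contrast, *Car9* was called on 23 arrays, the second *Car4* probe on 22, the 2 *Car8* probes on 14 and 0, *Car5b* on 3 and *Car12* on 0. Where a probe was not well above background, its ratio says little about the gene.

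**Figure D1:**
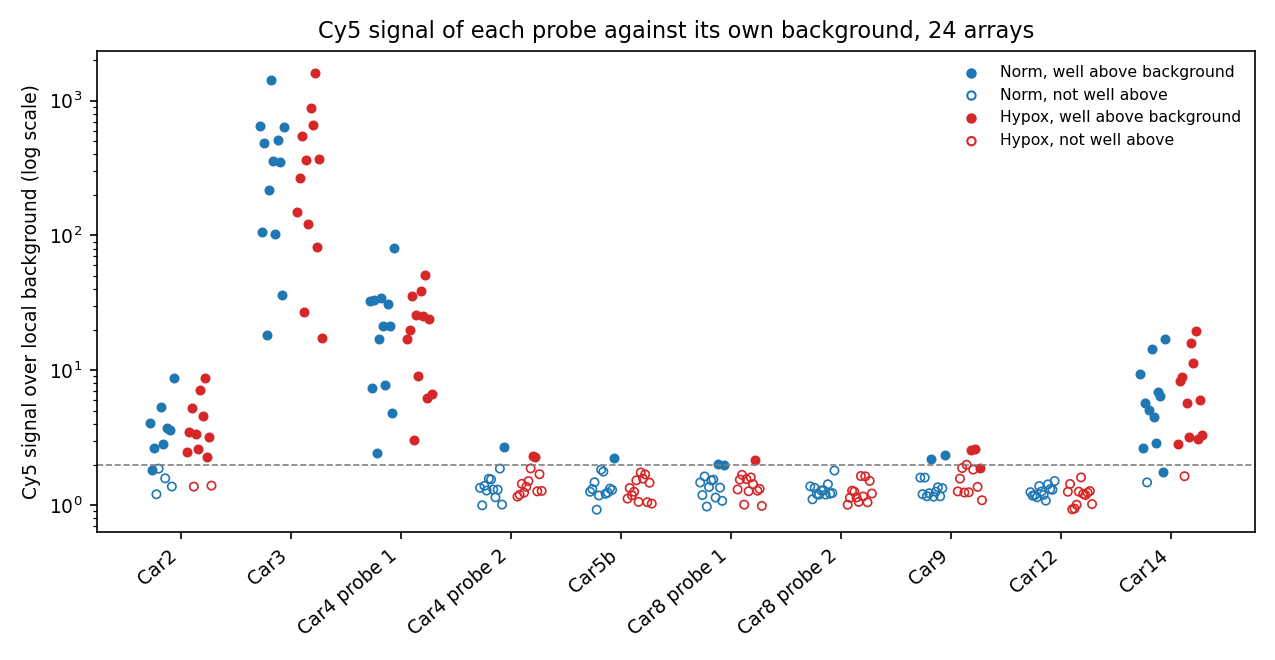
Cy5 signal over the local background of the same probe (log axis, no unit) on the 12 Norm arrays (blue) and the 12 Hypox arrays (red). Filled points are arrays where the scanner software called the probe well above background, and the dashed line is at 2. *Car3* and the first *Car4* probe are filled on 24 arrays, *Car14* on 22 and *Car2* on 18, while *Car12* has no filled point. Heights compare arrays within 1 probe only.

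Of the 4 probes past the filter, 1, that of *Car3*, had an unadjusted P-value under the study's threshold of 0.05, and 0 passed after Benjamini-Hochberg adjustment (limma's moderated test). Among all 14233 probes past the filter, 14.1% passed without adjustment, 6.60% lower and 7.48% higher in Hypox, and 1.00% passed with it. The median log2 fold change was -0.01 over the 4 probes and 0.02 over all probes tested. Of the 4, 2 had a positive and 2 a negative difference.

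*Car3* (NM_007606) was read by a probe on chromosome 3 from 14871781 to 14871840 (mm9, + strand). Its product is the slow, cytosolic carbonic anhydrase of skeletal muscle and fat cells, also known for its reactive thiols. The log2 ratio of *Car3* had a lowest value of -0.84, a median of 0.27 and a highest value of 0.87 in Norm, against -1.16, -0.30 and 0.56 in Hypox. The groups overlapped, yet 11 of 12 Hypox arrays lay under the Norm median and 3 under every Norm array. The lowest Norm value came from the Norm 12 array and the highest Hypox value from the Hypox 4 array.

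Norm averaged 0.26 ± 0.46 (SD, n = 12) and Hypox -0.32 ± 0.48 (SD, n = 12) for *Car3*. Its log2 fold change was -0.58 (standard error 0.18, 95% interval -0.95 to -0.22), a 1.50-fold lower level, with P-value = 0.00267 and adjusted P-value = 0.112 from limma, but with each array centred on its median in place of loess the difference turned to 0.076 (P-value = 0.904). That centring moved the median of all probes to 0.24, and relative to it *Car3* stood at -0.17. On the authors' deposited values the difference of *Car3* was -0.10 (P-value = 0.800). With the Cy5 channel alone it was -0.36 (P-value = 0.0536), and with the scanner software's own processed signals -0.37 (P-value = 0.000880, adjusted P-value = 0.0497).

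Within slides, the 2 Hypox arrays averaged below the 2 Norm arrays for *Car3* on 5 of 6 slides. The difference was -1.08 on slide 1, -0.996 on slide 2, -0.65 on slide 3, -0.37 on slide 4, -0.41 on slide 5 and 0.014 on slide 6. It was thus widest on the 2 dimmest slides and near 0 on the brightest. The slide as a block gave P-value = 0.00404 (adjusted P-value = 0.115), and the exact permutation within slides P-value = 0.00870 (2-sided). Without slide 1 the log2 fold change of *Car3* was -0.48 (P-value = 0.00509). In the Norm arrays *Car3* was lower where the array was brighter (Pearson r = -0.67 with log2 mean Cy5 signal, permutation P-value = 0.0137; Spearman rho = -0.62, P-value = 0.0372; n = 12), and in the Hypox arrays r was 0.12 (permutation P-value = 0.715). These relations with array brightness were added after the values were seen. The part of array brightness in the difference of *Car3* was not tested beyond these values.

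**Figure D2:**
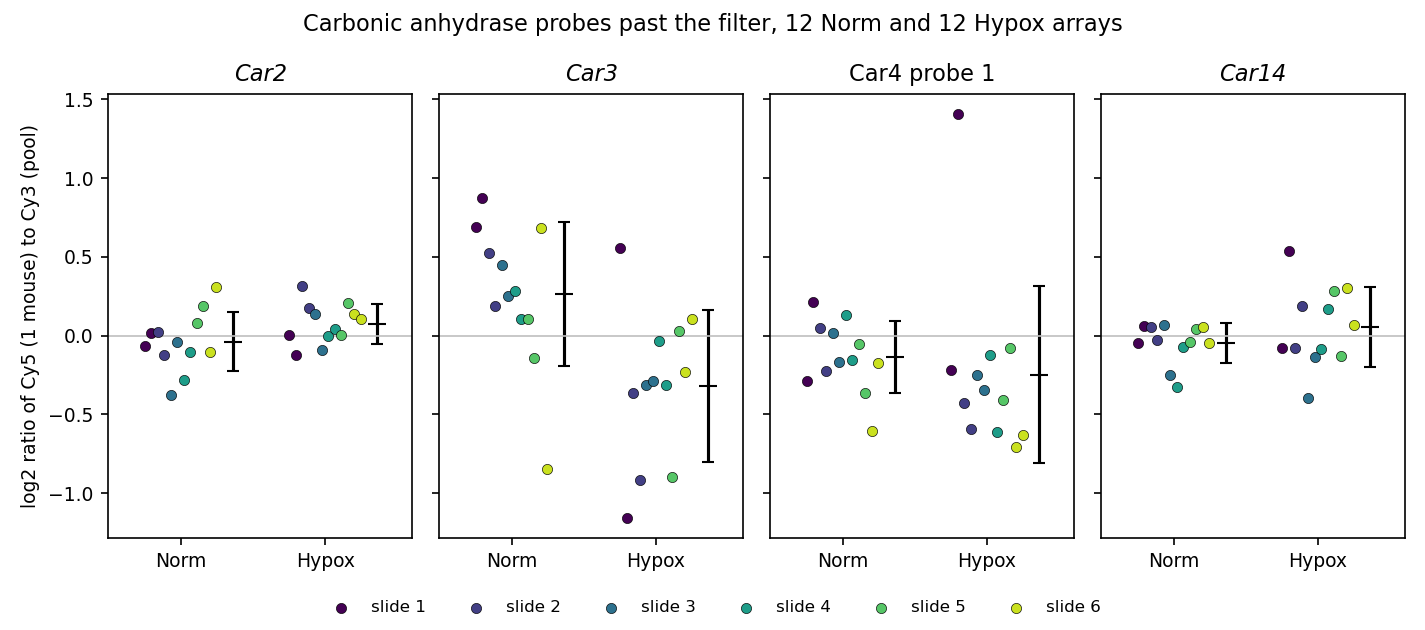
Log2 ratio of Cy5 (1 mouse) to Cy3 (pool) after loess, per array, for the 4 probes past the filter. Points are arrays coloured by slide from 1 (dimmest) to 6 (brightest), and bars give mean ± SD (n = 12 per group). *Car3* averages 0.26 in Norm and -0.32 in Hypox, an order that turned under median centring, and 1 Hypox array stands at 1.41 for *Car4*.

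Fat cells and muscle fiber types also express *Car3*, so their markers are given beside it. In bulk tissue, fewer cells of a type and less RNA per cell cannot be told apart. Of 7 adipocyte markers past the filter, 2 passed the unadjusted threshold, both lower in Hypox: *Adipoq* (adiponectin, -0.33, P-value = 0.0314, limma) and *Cfd* (adipsin, -0.56, P-value = 0.0181). With the slide as a block 3 did. Among all 14233 probes past the filter, 14.1% passed unadjusted, and 2275 passed with the slide as a block. The median log2 fold change of the 7 was -0.12, and those with a positive difference were *Pnpla2* (0.22, P-value = 0.127, limma) and *Plin4* (0.08, P-value = 0.510). The mean level of the 7 markers per array lay between -0.50 and 0.63 in Norm and between -0.44 and -0.06 in Hypox. The Norm 12 array, which had the lowest *Car3* of Norm, had the highest adipocyte level. Leaving that array out gave -0.68 for *Car3*. Over all arrays *Car3* and the adipocyte level had Pearson r = 0.04 (permutation P-value = 0.846) and Spearman rho = 0.27 (P-value = 0.197). Without the 2 arrays farthest from the median adipocyte level, r was 0.56 (permutation P-value = 0.0074) and rho 0.51 (P-value = 0.0168). The sign differed between the groups (n = 12 each). Within Norm, r was -0.53 (permutation P-value = 0.0896) and rho -0.22, and within Hypox r was 0.59 (permutation P-value = 0.0456) and rho 0.22.

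Of 10 slow fiber markers, 3 were higher in Hypox at the unadjusted threshold (*Tnni1*, *Tnnc1* and *Casq2*, by 0.61, 0.44 and 0.27) and 0 lower. Of all probes, 14.1% passed in either direction. Of 10 fast fiber markers, 0 passed, and their median log2 fold change was -0.25. With the slide as a block, 3 of the 10 passed unadjusted, all lower in Hypox: *Myh4* (-0.59, P-value = 0.00343, limma), *Myh1* (-0.26, P-value = 0.0102) and *Pvalb* (-0.48, P-value = 0.0162). Of all 14233 probes, 2275 passed with that block in either direction. *Myh4* and *Myh1* encode fast myosin heavy chains and *Pvalb* the calcium buffer parvalbumin. Over all 24 arrays, *Car3* and the fast fiber level had Pearson r = 0.58 (permutation P-value = 0.00296, adjusted over 10 relations 0.0296) and Spearman rho = 0.43 (P-value = 0.0359, adjusted 0.269). After slide means were removed, r was 0.80 (permutation within slides P-value = 0.00197) and rho 0.69 (P-value = 0.00444). Those 2 values include slide 1 and were not computed without it. On slide 1 the fourth array, Hypox 12, had a fast fiber level of 0.57 and the lowest *Car3* of all arrays. The fast fiber level of the other 3 of the 4 slide 1 arrays stood apart at 2.06 to 2.15. The general skeletal muscle markers stood at 2.24, 2.10 and 2.07 on those 3 arrays (Norm 4, Norm 11 and Hypox 4). That list shares *Myh4*, *Myh1*, *Tnnt3* and *Pvalb* with the fast fiber list, so the 2 levels are not independent. The slow fiber level was 0.17, 0.03 and 0.09 on the same arrays. Whether the fast fiber level reads fiber type or the brightness of its probes was not tested. Without the 2 arrays farthest from the median fast fiber level, r was 0.49 (permutation P-value = 0.0184) and rho 0.28 (P-value = 0.208). Within Norm, r was 0.68 (permutation P-value = 0.0162, n = 12) and rho 0.69, and within Hypox r was 0.48 (permutation P-value = 0.138, n = 12) and rho -0.02. With the slow fiber level, r was -0.27 over all arrays (permutation P-value = 0.214; rho = -0.15, P-value = 0.487), -0.06 without the 2 farthest and -0.37 with slide means removed (permutation within slides P-value = 0.00965; rho = -0.41, P-value = 0.0285). Over the 20 arrays without slide 1, a set chosen after the values were seen, *Car3* had Pearson r = 0.43 (permutation P-value = 0.0562) and Spearman rho = 0.28 (P-value = 0.234) with the fast fiber level, and r = -0.46 (P-value = 0.0405) and rho = -0.44 (P-value = 0.0531) with the slow fiber level. In all, 10 relations of carbonic anhydrases with a marker level or with array brightness were examined over the arrays, those with brightness after the values were seen. Apart from that of *Car3* with the fast fiber level, the permutation P-values of Pearson's r adjusted over the 10 were at least 0.168. The part of these cell types in the difference of *Car3* was not tested.

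**Figure D3:**
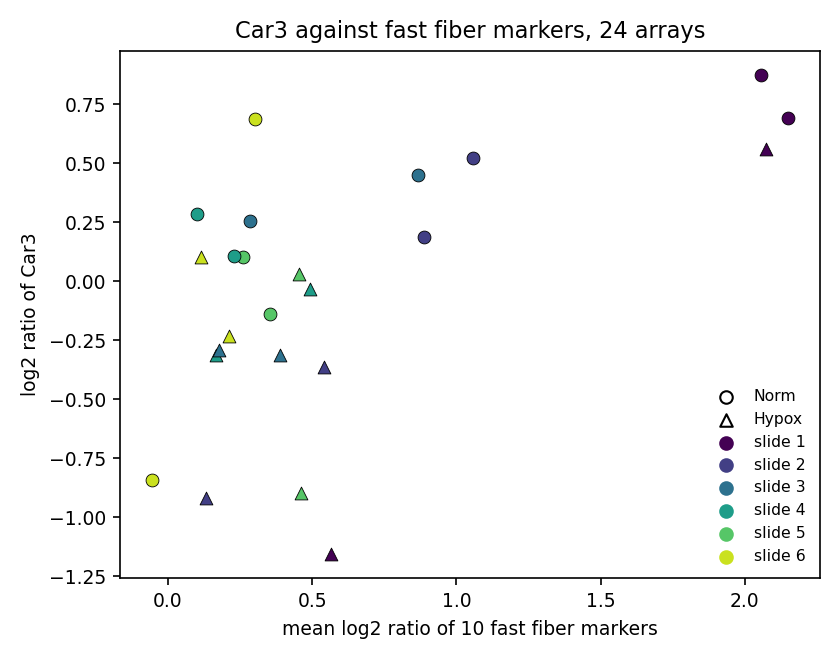
Log2 ratio of *Car3* against the mean log2 ratio of 10 fast fiber markers, 1 point per array, circles for Norm and triangles for Hypox, coloured by slide. Of the slide 1 arrays, 3 lie apart at a marker level of 2.06 to 2.15 with positive *Car3*, and the fourth, Hypox 12, has the lowest *Car3* of all, -1.16.

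*Car4* (NM_007607), the membrane-anchored enzyme of capillary endothelium and the sarcolemma, had its brighter probe on chromosome 11 from 84779487 to 84779546 (mm9). Its log2 ratio in Norm had a lowest value of -0.61, a median of -0.16 and a highest value of 0.21, and in Hypox -0.71, -0.38 and 1.41. The value of 1.41 was that of the Hypox 12 array, which lies on slide 1, and 3 Hypox arrays lay under every Norm array. On Hypox 12 the Cy3 signal of the pool for this probe was 1055, against 1978 to 4353 on the other arrays. The Cy5 signal of the probe there was 240, against 63.0 to 144 on the other slide 1 arrays. Norm averaged -0.14 ± 0.23 (SD, n = 12) and Hypox -0.25 ± 0.56 (SD, n = 12), so that the log2 fold change was -0.11 (95% interval -0.45 to 0.22, P-value = 0.492).

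Leaving out 1 array or slide, or reading 1 channel, changed the call. Without Hypox 12, *Car4* differed by -0.26 (P-value = 0.00868, adjusted P-value = 0.159, limma), and without slide 1 by -0.26 (P-value = 0.0135, adjusted P-value = 0.194). With the Cy5 channel alone, over all 24 arrays, *Car4* differed by -0.26 (P-value = 0.0490, adjusted P-value = 0.528). The Hypox mean was the lower one on 5 of 6 slides and 0.63 higher on slide 1, but the difference over all arrays was 0.27 with median centring and 0.12 on the deposited values. The second probe, on chromosome 11 from 84777667 to 84777726, read 0.01 on Hypox 12 and differed by 0.10 over all arrays (P-value = 0.233), but it was well above background on only 3 arrays.

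Endothelial markers are given beside *Car4*. Of 7 past the filter, 3 were higher in Hypox at the unadjusted threshold (*Cdh5*, *Cldn5* and *Esam*, by 0.38, 0.30 and 0.28) and 0 lower. Of all probes, 14.1% passed in either direction. The median of the 7 was 0.11, and those with a negative difference were *Kdr* (-0.15, P-value = 0.237, limma) and *Tie1* (-0.0040, P-value = 0.965). *Car4* and the endothelial level had Pearson r = -0.21 (permutation P-value = 0.328) and Spearman rho = -0.36 (P-value = 0.0854) over 24 arrays, with r = -0.25 without the 2 arrays farthest from the median level. With log2 mean Cy5 signal of the array, a relation added after the values were seen, *Car4* had r = -0.42 (permutation P-value = 0.0336, adjusted P-value = 0.168) and rho = -0.40 (P-value = 0.0537), and r = -0.54 without the 2 farthest arrays. On the Hypox 8 array, where *Sftpc* of the lung was at 2.57, the brighter *Car4* probe stood at -0.61.

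**Figure D4:**
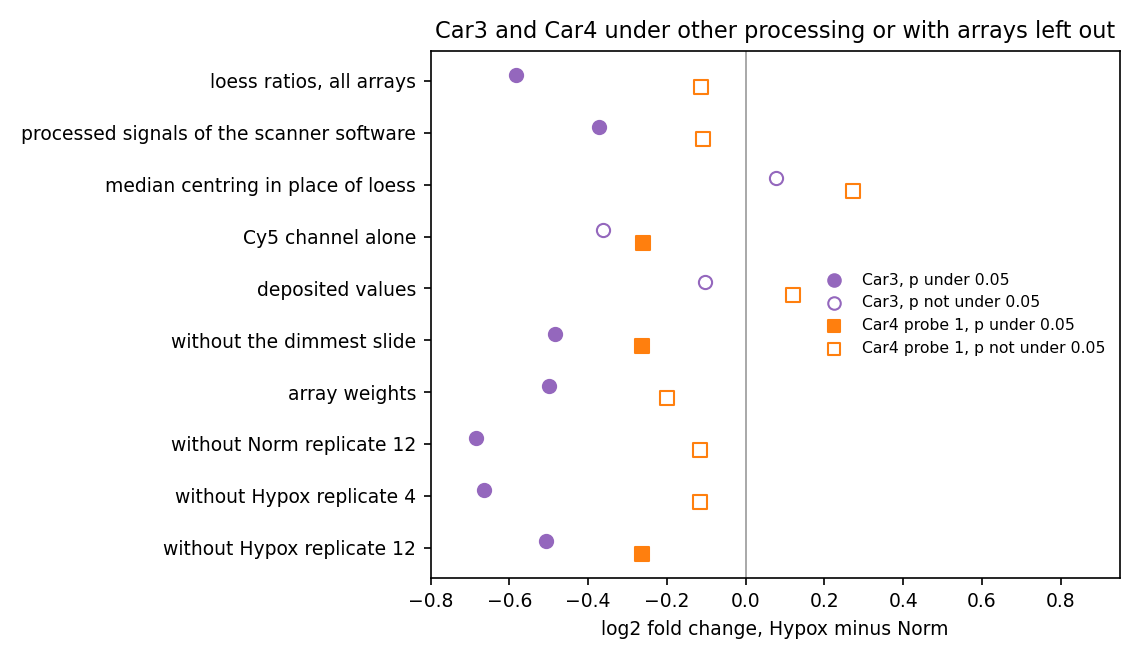
Log2 fold change (Hypox minus Norm) of *Car3* (circles) and of the brighter *Car4* probe (squares) with other processing or with arrays left out. Filled symbols had an unadjusted limma P-value under 0.05. *Car3* lies between -0.68 and 0.076, positive with median centring, and *Car4* between -0.26 and 0.27, positive with median centring and on the deposited values.

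*Car2* (NM_009801, chromosome 3 from 14900206 to 14900265, mm9, a neighbour of *Car3*) encodes the fast cytosolic enzyme. Its log2 ratio had a lowest value of -0.38, a median of -0.05 and a highest value of 0.31 in Norm, and -0.12, 0.07 and 0.32 in Hypox. Of the Hypox arrays, 10 of 12 exceeded the Norm median and 1 the highest Norm array. The log2 fold change of *Car2* was 0.12 (95% interval -0.03 to 0.26, P-value = 0.120, adjusted P-value = 0.489). Without the Norm 12 array, which held the highest Norm value, it was 0.15 with P-value = 0.0414. With a red cell level of 6 markers, *Car2* had Pearson r = -0.08 (permutation P-value = 0.70) and Spearman rho = -0.06 (P-value = 0.785) over 24 arrays, and r = -0.14 without the 2 farthest.

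*Car14* (NM_011797, chromosome 3 from 95701859 to 95701918, mm9) spread more in Hypox than in Norm. Its log2 ratio had a lowest value of -0.33, a median of -0.03 and a highest value of 0.07 in Norm, and -0.40, -0.0046 and 0.53 in Hypox. In Hypox, 6 arrays exceeded the highest Norm array and 1 fell short of the lowest. The highest Hypox value was that of Hypox 12. The SD was 0.13 in Norm and 0.25 in Hypox, a difference in spread that was not tested. The means differed by 0.10 (95% interval -0.08 to 0.27, P-value = 0.255, adjusted P-value = 0.638), and the Hypox mean was the higher one on 5 of 6 slides. Without Hypox 12 they differed by 0.05 (P-value = 0.490). With the fast fiber level, *Car14* had Pearson r = 0.01 (permutation P-value = 0.959) and Spearman rho = 0.02 (P-value = 0.925) over 24 arrays. Over the 20 arrays without slide 1, a set chosen after the values were seen, r was 0.07 (permutation P-value = 0.785) and rho -0.02 (P-value = 0.952).

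*Car9* (NM_139305, chromosome 4 from 43526518 to 43526577, mm9) is a HIF target, and its enzyme is held at the cell surface. Its log2 ratio had a lowest value of -0.38, a median of -0.07 and a highest value of 0.15 in Norm, and -0.25, 0.0094 and 0.40 in Hypox. Of 12 Hypox arrays, 8 exceeded the Norm median and 3 the highest Norm array. Among these 3 was Hypox 10 (0.27), where dim probes read higher in Cy3. In the test without a filter, where 8.06% of 55681 probes passed unadjusted, the log2 fold change of *Car9* was 0.13 (95% interval -0.02 to 0.28, P-value = 0.0776, adjusted P-value = 0.674). Without slide 1, the dimmest, it was 0.19 (P-value = 0.0193, adjusted P-value = 0.452), and on the deposited values it was -0.051. The probe was well above background on 2 Norm and 3 Hypox arrays.

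HIF binds DNA at the core letters ACGTG or GCGTG. The RefSeq promoters (GRCm38.p6) of 5 of the 8 genes, *Car4*, *Car5b*, *Car9*, *Car12* and *Car14*, were searched on both strands, from 250 bases before the start to 50 after it. ACGTG was found in 19.6% and GCGTG in 32.4% of all 32851 promoters of that length, and at least 1 of them in 43.8%. The 100 bases before the start are shown for *Car9*, as the HIF target, and for *Car14*, which passed the filter and holds the same letters, with the match to ACGTG on the opposite strand in capitals.
Car9, chr4:43506926-43507025, + strand: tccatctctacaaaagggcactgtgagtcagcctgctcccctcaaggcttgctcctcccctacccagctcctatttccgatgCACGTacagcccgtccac
Car14, chr3:95904686-95904785, - strand: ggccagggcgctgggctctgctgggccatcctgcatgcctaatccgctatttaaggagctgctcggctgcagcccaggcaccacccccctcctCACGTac
The match lies at -18 to -14 from the start in *Car9* and at -7 to -3 in *Car14*. *Car4* held 1 ACGTG after its start, from 3 to 7 and on the opposite strand. *Car5b* held 5 matches to GCGTG, and the window of *Car12* held neither. A match is a description of letters, and in these data neither *Car9* nor *Car14* passed the test over all arrays.

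The probes of *Car5b*, *Car8* and *Car12*, none of them past the filter, differed by between -0.06 and -0.04, with P-values of at least 0.387. The log2 fold change was -0.05 (95% interval -0.21 to 0.10) for *Car5b*, -0.04 (-0.18 to 0.10) and -0.04 (-0.15 to 0.06) for the 2 probes of *Car8*, and -0.06 (-0.19 to 0.08) for *Car12*. *Car5b* was well above background on 1 Norm and on 0 Hypox arrays (adjusted P-value = 0.907 from limma without a filter). These intervals hold log2 ratios of dim spots and do not limit the change of the transcripts.

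**Figure D5:**
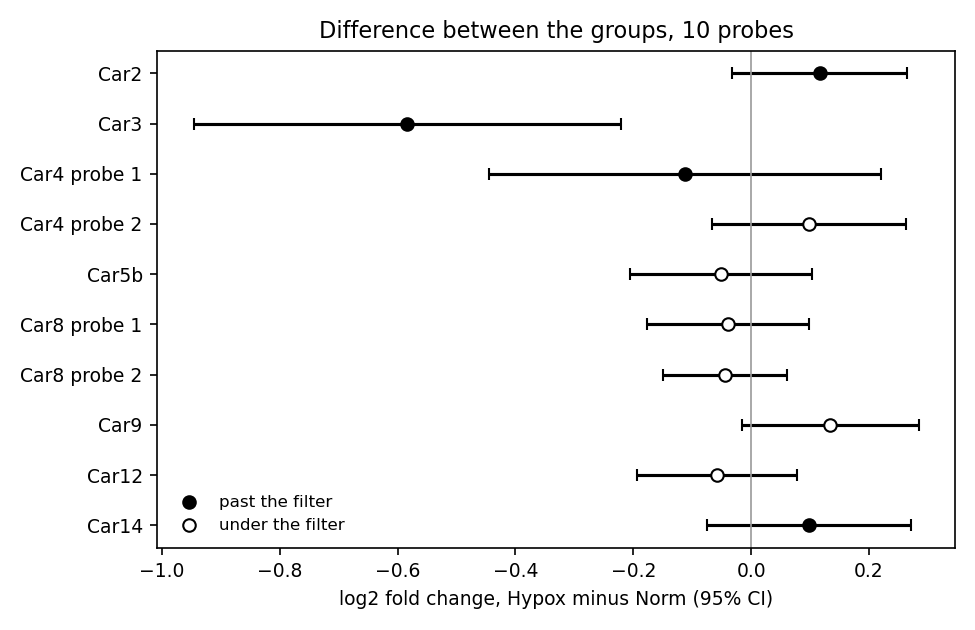
Log2 fold change (Hypox minus Norm) with its 95% interval for the 10 carbonic anhydrase probes (limma, 12 arrays per group). Filled points passed the filter on dim probes, open points did not and come from the test without a filter. The interval of *Car3* lies below 0, at -0.95 to -0.22, although its sign turned with median centring, and the other 9 intervals include 0.

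Among the 4 genes past the filter, 6 pairs were compared over 24 arrays after slide means were removed. The lowest Pearson r was -0.50 for *Car3* and *Car14* (permutation P-value within slides = 0.0495, adjusted P-value = 0.229), and it was -0.22 without the 2 arrays farthest from the *Car3* median. No pair passed after adjustment, and 2 pairs had an unadjusted P-value under 0.1. The SD of *Car3* in Norm, 0.46, stood beside a median of 0.22 over all probes past the filter, and the Norm SDs of the other 3 genes lay between 0.13 and 0.23.

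The genes with the most similar pattern were taken over the same 24 arrays with slide means removed. Those nearest to *Car3* were *Glrx2*, a mitochondrial glutaredoxin (r = 0.94), a transcript listed only by its position on chromosome 5 from 26323150 to 26357875 (r = 0.91) and *Phyhd1* (r = 0.91). *Glrx2* differed between the groups by -0.69, the chromosome 5 transcript by -0.45 and *Phyhd1* by -0.34. Nearest to *Car4* were *Samd10* (r = 0.90) and 2 unnamed transcripts (r = 0.88 and 0.87), and without the 2 arrays farthest from the *Car4* median these values were between 0.69 and 0.74. Nearest to *Car2* were *Cd36*, the fatty acid transporter, *Nudt2* and *Hmgb3* (r = 0.77 each), which differed by 0.29, 0.28 and 0.11. Nearest to *Car14* were an unnamed transcript on chromosome 14, *Tomm40l* and *Klhdc2* (r = 0.84, 0.83 and 0.82). These genes were chosen from 11607 for their r, which is therefore given without a test. Their differences between the groups come from the same arrays as that choice and are also given without a test.

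Of the 8 other carbonic anhydrases on the array, 2 passed the filter. *Car7*, a cytosolic form of muscle and brain, was well above background on 20 arrays and averaged -0.00044 ± 0.34 (SD, n = 12) in Norm against -0.18 ± 0.22 (SD, n = 12) in Hypox (log2 fold change -0.18, P-value = 0.122). *Car11*, which lacks catalytic activity, was so on 14 arrays and differed by -0.08 (P-value = 0.506). *Car15* was read above background on 2 arrays and *Car1*, *Car5a*, *Car6*, *Car10* and *Car13* on 0. One probe of *Car1*, the red cell form, had a difference of 0.15 with P-value = 0.0118 (adjusted P-value = 0.435), at a signal not well above background on any array.

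Around the enzymes, 44 of 69 listed genes of the connected pathways passed the filter, and of these 2 were higher and 1 lower in Hypox at the unadjusted threshold, beside 14.0% of all 11607 genes tested. None passed after adjustment. Of 5 bicarbonate transport genes tested, the sodium bicarbonate cotransporter *Slc4a4* was lower (0.01 ± 0.21 in Norm, -0.25 ± 0.18 in Hypox, SD, n = 12 each; log2 fold change -0.27, P-value = 0.00362), and the median of the 5 was -0.09. Of 6 proton and lactate transport genes tested, 0 passed. The median of those 6 was -0.04, beside 0.02 for all genes.

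The list of biotin-dependent carboxylases, which use bicarbonate as substrate, also holds *Hlcs*, which is not a carboxylase. Of the 8 genes of this list tested, *Mccc2* of leucine breakdown was higher (-0.14 ± 0.21 in Norm, 0.09 ± 0.19 in Hypox, SD, n = 12 each). Its log2 fold change was 0.24 (P-value = 0.00915, limma), with a median of 0.05 over the 8. With the slide as a block, where 2275 of all 14233 probes passed, *Pccb* of propionate breakdown also passed (0.21, P-value = 0.0155, limma). Of the 3 IP3 receptor genes, 0 passed. *Itpr2* had the smallest P-value (-0.13, P-value = 0.192, limma), and *Itpr1* differed by -0.15 (P-value = 0.277). Of 20 HIF targets tested, *Ankrd37* was higher (-0.31 ± 0.20 in Norm, -0.06 ± 0.24 in Hypox, SD, n = 12 each; log2 fold change 0.25, P-value = 0.0106), and the other 19, among them *Vegfa*, *Ldha* and *Slc2a1*, did not pass. With the slide as a block, *Aldoa*, a glycolytic aldolase, was lower (-0.44, P-value = 0.0170, limma). The median of the 20 was 0.03.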

How the data were processed

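The authors deposited, per array, intensity values for every spot (a mean signal and a local background in each channel), written by Agilent Feature Extraction 10.7.3.1 (named in the submitters' processing notes) not normalized between arrays, and log2 values that they had normalized for 21335 of 59305 spots. The median of the first column of those was 6.58. Their centring and their use of the Cy3 channel are not known, and they served as an alternative. Groups came from the sample titles. The description of each sample gave the dyes, because several Hypox samples carry dye labels other than Cy5 and Cy3. Probe positions are those of the array's design (mm9), and no annotation of that build was used here, so that exons and UTRs are not given.

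Control spots and 7260 flagged spot readings were left out, and 0 were saturated. The background was corrected with normexp (offset 50), ratios were normalized by loess within arrays and spots of a probe averaged. Probes needed a mean ratio of Cy5 signal to local background over 2 and values missing from no more than 4 arrays, which left 14233. Members under the filter were taken from the fit without a filter. Hypox was tested against Norm with limma without a block, and P-values were adjusted by Benjamini-Hochberg over all probes tested. Correlations were tested with 100000 permutations. The brightest probe past the filter stood for a listed gene.

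The members, the gene lists and the rule for named genes (all members, the other carbonic anhydrases, of each pathway list the genes past the unadjusted threshold or the smallest P-value, and the 3 genes nearest to each member) were chosen with earlier results of these data known. A gene that this rule includes is not reported here. *Sftpc* and the named markers were chosen after their values were seen. Markers of peripheral nerve (3 of 6 tested lower, 0 higher at the unadjusted threshold), red cells (0 of 6) and skeletal muscle (0 of 8) were also examined (with the slide as a block 4, 1 and 3 were lower), and of 10 lung markers 1 passed the filter and was higher. Among all 14233 probes, 14.1% passed unadjusted, and 2275 passed with the slide as a block.

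R 4.3.3, limma 3.58.1, Python 3.11.15 and matplotlib 3.10.9 were used. On simulated data with 200 of 14233 probes changed by 1 on the log2 scale, limma recovered 97.5% with 11 false calls, and 4.93% of probes had a P-value under 0.05 where no change was simulated. The simulated noise was independent between probes and held no slide or brightness effect. These shares therefore check the code and do not give the error rate or power on the real arrays. Alternatives were median centring, the software's processed signals, Cy5 alone, values as deposited, an exact permutation within slides, the methods' t-test, other filters, 1 probe per gene, slide or replicate block, array weights, and leaving out slide 1 or each array. Of same-numbered Norm and Hypox arrays, 3 of 12 pairs had a correlation of their deviations over 0.1 (range -0.22 to 0.54).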

Additional observations from a re-analysis of the deposited data

How the results depend on the processing

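*Car3* was lower in Hypox with an unadjusted P-value under 0.05 in 34 of the 37 alternatives. Of these, 24 left out 1 array each, and others tested the same loess ratios in another way. The count is therefore no measure of independent support. Where other values replaced the loess ratios, *Car3* passed with the processed signals only (-0.37, P-value = 0.000880, limma). With median centring it was 0.076, with the Cy5 channel alone -0.36 (P-value = 0.0536) and on the deposited values -0.10. Its adjusted P-value ran from 0.0214 to 0.935 over the alternatives, and without single arrays its log2 fold change was -0.68 to -0.51. Of the 4 probes, 1 passed unadjusted, 0 with median centring and 0 on the deposited values, 2 without slide 1, 1 with the Cy5 channel alone (*Car4* in place of *Car3*) and 1 to 2 without single arrays, with 2 after leaving out Norm 12 (*Car2*) or Hypox 12 (*Car4*). The cause was not tested for any of these.

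The count of all probes, 2004 unadjusted (53.1% of them higher), was 57 (55 higher, 2 lower) with median centring, 1335 with Cy5 alone, 974 (420 higher, 554 lower, of 19360) on the deposited values, 4487 without a filter (of 55681) and 1710 to 2266 without single arrays. After adjustment, 143 became 253 with processed signals, 0 with median centring (57 unadjusted), 74 with Cy5 alone, 1 on the deposited values, 89 with the methods' t-test, 45 without a filter, 666 with array weights and 51 to 238 without single arrays. Listed pathway genes past the threshold, 3 of 44, were 1 with median centring, 1 on the deposited values and 5 with the slide as a block. With that block, 2275 of all 14233 probes passed. Of 6 relations with marker levels, 1 had an unadjusted P-value under 0.05, 2 with slide means removed and 2 without the 2 farthest arrays.

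The signs of other probes turned in settings where their test did not pass. Processed signals gave 0.021 for *Car5b*, 0.10 for the second *Car8* probe and 0.18 for *Car12*. Median centring gave 0.27 for *Car4* and 0.040 for *Car5b*. The deposited values gave 0.12 and -0.13 for the 2 *Car4* probes and -0.051 for *Car9*, and array weights, chosen after seeing the data, 0.010 for the first *Car8* probe. Of the relations, for which leaving out slide 1 was also chosen after seeing the data, *Car3* with adipocyte markers was -0.53 in Norm and -0.12 without slide 1, *Car3* with slow fiber markers 0.28 in Hypox, *Car4* with endothelial markers 0.18 in Norm, *Car2* with red cell markers 0.023 without slide 1, and *Car14* with fast fiber markers -0.39 with slide means removed and -0.16 in Hypox.

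The replicate numbers did not pair the arrays, and a replicate block moved the count of all probes to 2068 and the P-value of *Car3* to 8.7e-05. Of the 12 Norm arrays, 1 was closest to its own number in Hypox. Dim spots limit *Car5b*, *Car8*, *Car9* and *Car12*, of which *Car9* passed the unadjusted threshold in 5 of 34 alternatives.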
